A study of Mus musculus with 48 samples.

Results

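Coch, Cdh16 and Pla2g2d had the 3 largest falls from FeNonAD to FeAAD aortas among differentially expressed genes (DEGs) that averaged at least 10 counts per library, and they were chosen by that fall. The count table held 18782 genes, of which 14431, including all 3, had enough counts to be tested. The libraries came from thoracic aortas of 48 wild-type C57BL/6J mice, 1 from each mouse. MaCon (10 males) and FeCon (10 females) drank normal water from 3 weeks of age for 28 days. MaNonAD (4), MaAAD (7), FeNonAD (8) and FeAAD (9) drank water with 0.4% β-aminopropionitrile (BAPN), an inhibitor of lysyl oxidase, which cross-links the collagen and elastin of the wall. NonAD mice had no lesion under the microscope and AAD mice had a dissection or an aneurysm, and mice that died of rupture before the end gave no library. The segments were ascending aorta, arch and proximal descending aorta, with lesioned parts taken where present. In a whole-tissue library, fewer cells of a type and less RNA per cell cannot be told apart.

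Coch encodes cochlin, a secreted matrix protein with an LCCL domain and von Willebrand factor A (VWA) domains that is best known from the inner ear, where its mutations cause hearing loss. Cdh16 encodes an atypical, short-tailed cadherin of the basolateral membrane, known from kidney tubules and thyroid follicles. Pla2g2d encodes a secreted phospholipase A2 of dendritic cells and macrophages in lymphoid tissue, where the fatty acids it frees from phospholipids feed lipid mediators that restrain inflammation. The 3 families differ in structure and function, and the genes were joined here only by how they behaved in females.

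The fall that chose the genes is a description and was not tested. Among genes that averaged at least 10 counts per library and met the thresholds for a DEG, an adjusted p under 0.05 with a log2 fold change at or beyond 1 in either direction, 26 fell from FeNonAD to FeAAD. Pla2g2d was at a log2 fold change of -2.28, Coch at -1.34 and Cdh16 at -1.33, the last inside the choice. Just outside it lay Col19a1, a non-fibrillar collagen, at -1.29 and Klk11, a secreted serine protease, at -1.27. Cdh16 and Col19a1 were thus nearly level, so the boundary of the choice is not a gap in the data. Without the 10-count minimum, Pla2g2d, Coch and Cdh16 stood at places 2, 5 and 6. Of all tested genes, 0.249% were lower DEGs in that step.

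Promoter sequences are shown to compare the start regions of genes that were lower together in lesions. RefSeq promoters (GRCm38.p6, 250 bases before to 50 after the start) matched 2 of the 3 genes by symbol, Coch and Pla2g2d. Capitals mark GC boxes (GGGCGG) in both, the letters TATAAA in Coch and a CCAAT box (CCAAT) in Pla2g2d, each searched on both strands. No marked motif overlaps another. The Coch promoter lies on the plus strand at chr12:51593091-51593390 and that of Pla2g2d on the plus strand at chr4:138775485-138775784.
Coch: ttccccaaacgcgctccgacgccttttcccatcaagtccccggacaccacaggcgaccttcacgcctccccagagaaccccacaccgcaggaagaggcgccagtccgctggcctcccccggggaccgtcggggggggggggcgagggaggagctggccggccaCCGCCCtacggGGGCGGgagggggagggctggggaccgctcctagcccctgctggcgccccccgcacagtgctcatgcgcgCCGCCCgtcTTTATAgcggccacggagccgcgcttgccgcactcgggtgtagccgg
Pla2g2d: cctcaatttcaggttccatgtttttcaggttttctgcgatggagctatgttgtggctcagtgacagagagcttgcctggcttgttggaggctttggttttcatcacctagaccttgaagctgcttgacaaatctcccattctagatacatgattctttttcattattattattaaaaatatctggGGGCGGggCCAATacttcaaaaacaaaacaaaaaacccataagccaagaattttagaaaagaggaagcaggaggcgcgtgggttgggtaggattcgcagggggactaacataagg

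The Coch window was rich in G and C at 73.7%, above 95.2% of 27025 mouse promoters of the same length, and held 32 CpG dinucleotides. The Pla2g2d window had a GC content of 43.0%, and 17.2% of promoters had a lower one. It held 5 CpG dinucleotides against a median of 7. A GC box was found 3 times in Coch and 1 time in Pla2g2d, and 35.9% of promoters held at least 1. The TATAAA letters of Coch stand on the minus strand and begin 4 bases into the transcript, after the start site, and 14.2% of promoters held them on either strand. The CCAAT letters of Pla2g2d were shared with 37.9% of promoters. Neither window held an E box (CANNTG) or an AP-1 site (TGANTCA), letters found in 72.1% and 7.93% of promoters. These matches describe the letters in the windows and locate no bound factor.

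Library totals ran from 13548003 to 17281262 counts, with a median of 15681333.5, so the 3 genes were read at low depth. Over the 48 libraries, Coch had 13 to 234 counts, Cdh16 2 to 45 and Pla2g2d 0 to 149. Levels are given as CPM, counts scaled to library size, with TMM factors, which ran from 0.874 to 1.08. Smooth muscle markers were high in every library, at a summed 11730 CPM or more. MaCon2 stood apart with a summed level of thymus markers of 159.52 CPM and of T cell markers of 112.54 CPM, FeAAD2 with red blood cell markers of 26924 CPM, and FeCon10 with heart muscle markers of 506.06 CPM and skeletal muscle markers of 62.102 CPM. Whether other tissue in these libraries touched the 3 genes was not tested, but each comparison was repeated without each of its libraries.

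In males, all 3 genes were lower in AAD aortas than in controls. The fall that ranked the genes was taken in female libraries, although the 10-count minimum and the fit behind the DEG calls used all 48. Each of the 3 passed both thresholds, so 3 of 3 were lower DEGs in MaAAD against MaCon, where 2.18% of all tested genes were. Their mean levels in MaCon were 2.14, 3.51 and 2.58 times those in MaAAD for Coch, Cdh16 and Pla2g2d. The test was the edgeR quasi-likelihood test with Benjamini-Hochberg adjustment over all 14431 tested genes, as for every adjusted p below. For none of the 3 did the 2 groups separate completely. Of all tested genes, 2.77% had every MaAAD library below every MaCon library.

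Coch in MaCon ran from 2.83 CPM through a median of 3.73 to 6.33 CPM. In MaAAD the lowest value was 1.05, the median 1.35 and the highest 4.59 CPM. Of the 7 MaAAD libraries, 6 lay below the lowest MaCon library, and MaAAD2 alone lay above the MaCon median. The mean was 3.99 CPM ± 1.13 (SD, n = 10) in MaCon and 1.86 ± 1.27 (n = 7) in MaAAD, a log2 fold change of -1.10 with a standard error of 0.327 and an adjusted p of 0.00718. The size stood close to the threshold: without MaCon9 it was -0.971, without MaAAD6 -0.997 and without MaAAD7 -0.995, with adjusted p of at most 0.0232 when any library was left out. Without MaAAD2 it was -1.50.

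Cdh16 showed the deepest male fall of the 3. In MaCon the lowest value was 0.735, the median 1.69 and the highest 2.99 CPM, which are 11 to 45 counts. In MaAAD the lowest was 0.120, the median 0.492 and the highest 0.989 CPM, which are 2 to 17 counts. All 7 MaAAD libraries lay below the MaCon median, and 8 of the 10 MaCon libraries lay above the highest MaAAD library. Means were 1.85 CPM ± 0.749 (n = 10) and 0.527 ± 0.380 (n = 7). The log2 fold change was -1.80 with a standard error of 0.390 and an adjusted p of 0.000263, and it stayed between -2.0 and -1.61 when any library was left out.

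Pla2g2d was between 1.33 and 4.14 CPM in MaCon, with a median of 2.24. It was between 0.175 and 1.98 CPM in MaAAD, with a median of 0.719. Again all 7 MaAAD libraries lay below the MaCon median, and 5 of them below every MaCon library. Means were 2.27 CPM ± 0.799 (n = 10) and 0.881 ± 0.681 (n = 7), with a log2 fold change of -1.36, a standard error of 0.439 and an adjusted p of 0.0129. Leaving out any library left the fold change between -1.69 and -1.18.

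**Figure D1:**
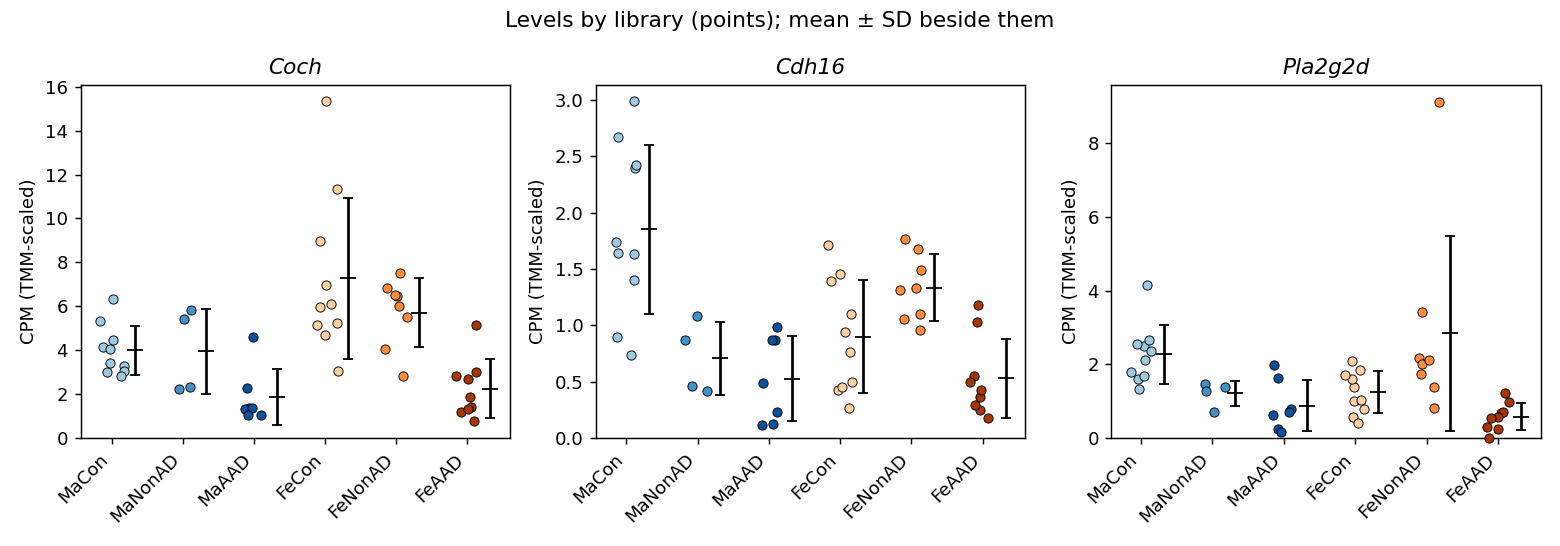
Levels of Coch, Cdh16 and Pla2g2d in each of the 48 libraries, in CPM scaled by TMM factors (vertical axis, a separate linear scale for each gene), by group (horizontal axis), with points for libraries and bars for mean ± SD. For all 3 genes the mean of each AAD group lies below the control mean of the same sex, while single AAD points overlap the controls, among them MaAAD2 for Coch at 4.59 CPM and FeAAD3 for Cdh16 at 1.18 CPM.

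BAPN without a lesion answers a different question, namely whether the levels had already moved in treated males with no detectable lesion. With 4 MaNonAD libraries none of the 3 genes was called against MaCon, where 0.097% of tested genes were lower DEGs. Those 14 genes became 0 without MaNonAD1, 4 without MaNonAD2 or MaNonAD3, 7 without MaCon6 or MaCon8, 8 without MaCon7, 9 without MaCon9 or MaCon10, 5 with the replicate number as a block and 23 with DESeq2. The 3 genes did not share a pattern. Coch stood at the control level, while Cdh16 and Pla2g2d stood below it in every MaNonAD library relative to the MaCon median. Both comparisons use the same MaCon libraries. Other markers moved in the same comparison. Of 5 tested B cell markers 4 (Cd79a, Cd79b, Ms4a1 and Pax5) were higher DEGs in MaNonAD, where 0.381% of tested genes were (55, or 15 without MaNonAD1 and 32 without MaNonAD3), and the summed list ran from 7.45 to 20.8 CPM against 0.856 to 5.76 CPM in MaCon. Of 5 cartilage markers 1, Acan, was a higher DEG. None of the 6 smooth muscle markers was called, with a median log2 fold change of -0.423. None of the 6 red blood cell markers was called, but their median log2 fold change was 2.11, and their summed level ran from 687 to 5181 CPM in MaNonAD against 208 to 1398 CPM in MaCon. The part of these shifts in the levels of the 3 genes was not tested.

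Coch in MaNonAD was 2.34, 5.41, 2.23 and 5.81 CPM, a mean of 3.95 ± 1.93 (n = 4). A pair of libraries lay below the whole MaCon range and the other pair in its upper part. Against MaCon, Coch was at a log2 fold change of -0.02 (95% interval -0.749 to 0.715, adjusted p = 0.994), and its sign changed when single libraries were left out. From MaNonAD to MaAAD the log2 fold change was -1.08 with a standard error of 0.396, an unadjusted p of 0.00892 and an adjusted p of 0.117. No gene of the table was a lower DEG in that step (0%), with edgeR, while 2694 genes had an unadjusted p under 0.05 and DESeq2 called 10 lower DEGs. That count was 216 in edgeR without MaAAD1, 14 without MaNonAD1, 11 without MaAAD2 and 2 without MaAAD4. Without MaAAD2 the Coch step was -1.48 with an adjusted p of 0.0344.

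Cdh16 in MaNonAD was 0.419, 1.08, 0.460 and 0.868 CPM, a mean of 0.707 ± 0.322 (n = 4). All 4 values lay below the MaCon median of 1.69 CPM. Against MaCon, Cdh16 was at a log2 fold change of -1.38 (95% interval -2.30 to -0.459), with an unadjusted p of 0.00518 that did not survive adjustment (0.181). From MaNonAD to MaAAD it moved by -0.42 (95% interval -1.38 to 0.548, adjusted p = 0.691).

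Pla2g2d in MaNonAD was 0.719, 1.46, 1.38 and 1.27 CPM, a mean of 1.21 ± 0.336 (n = 4). Of the 10 MaCon libraries 9 lay above the highest of these. Against MaCon, Pla2g2d was at a log2 fold change of -0.91 (95% interval -1.94 to 0.119, adjusted p = 0.517). From MaNonAD to MaAAD it was -0.45 (95% interval -1.52 to 0.621, adjusted p = 0.700), and 2 MaAAD libraries lay above the whole MaNonAD range.

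Without BAPN, the sexes differed in opposite directions for Cdh16 and Coch. Cdh16 was higher in MaCon than in FeCon and was a DEG there, at 2.06 times the FeCon mean, where 0.644% of tested genes were higher DEGs (93, or 60 without FeCon1). Coch was lower in MaCon, past the adjusted p, as were 7.9% of tested genes, but under the fold threshold. Pla2g2d did not pass, although in a fit of these 2 groups alone its adjusted p was 0.0286. Thymus and T cell markers were also higher in MaCon, with 3 of 5 tested thymus markers (Rag2, Dntt and Cd8a) and 4 of 6 T cell markers (Cd3g, Cd247, Lck and Cd2) as higher DEGs. The summed thymus list ran from 0.535 to 160 CPM in MaCon and 0.782 to 17.1 CPM in FeCon, with MaCon2 the highest, and the summed T cell list from 1.94 to 113 and 1.64 to 13.8 CPM. Without MaCon2, Cdh16 was at 1.05 (adjusted p = 0.0331), Coch at -0.838 (adjusted p = 0.0473) and Pla2g2d at 0.85 (adjusted p = 0.144).

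Cdh16 in FeCon ran from 0.262 through a median of 0.850 to 1.71 CPM, against 0.735 to 2.99 CPM in MaCon. Of the 10 MaCon libraries, 9 lay above the FeCon median. The log2 fold change from FeCon to MaCon was 1.04 with a standard error of 0.332 and an adjusted p of 0.0296. The call rested on few libraries, since it was lost when any of MaCon5, MaCon6, MaCon9, MaCon10, FeCon1, FeCon5, FeCon6 or FeCon10 was left out, with values down to 0.926 and adjusted p up to 0.0665.

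Coch in FeCon ran from 3.04 through a median of 6.03 to 15.3 CPM. The highest value was in FeCon10, the library with the most heart and skeletal muscle markers, and 9 of the 10 MaCon libraries lay below the FeCon median. The log2 fold change from FeCon to MaCon was -0.87 with a standard error of 0.281 and an adjusted p of 0.0315. With the replicate number as a block its adjusted p was 0.0551. It was -0.676 without FeCon10, and over single libraries left out the adjusted p reached 0.106.

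Pla2g2d in FeCon ran from 0.415 through a median of 1.21 to 2.08 CPM. All 10 MaCon libraries lay above that median, and 6 above every FeCon library. The log2 fold change from FeCon to MaCon was 0.87 (95% interval 0.116 to 1.62) with an adjusted p of 0.119.

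The female groups are given as values, since the step from FeNonAD to FeAAD chose the genes and the comparisons with FeCon share its libraries. Mean levels of all 3 genes were lowest in FeAAD among the female groups. Those of Cdh16 and Pla2g2d were highest in FeNonAD, and that of Coch in FeCon. Marker lists also moved in FeAAD against FeCon, where 9.94% of tested genes were higher and 2.78% lower DEGs. Higher were 6 of 6 macrophage, 6 of 6 red blood cell and 7 of 8 dendritic cell markers. So were 5 of 5 tested B cell and 4 of 5 tested cartilage markers. Lower were 3 of 6 smooth muscle and 3 of 6 heart muscle markers. Their part in the female levels of the 3 genes was not tested.

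Coch in FeNonAD ran from 2.80 through a median of 6.25 to 7.52 CPM, with a mean of 5.71 ± 1.56 (n = 8). In FeAAD it ran from 0.785 through 1.88 to 5.14 CPM, with a mean of 2.25 ± 1.34 (n = 9). The highest FeAAD value was that of FeAAD3, and all 9 FeAAD libraries lay below the medians of FeNonAD and FeCon. Against the FeCon mean of 7.28 ± 3.67 (n = 10), the log2 fold change was -0.35 for FeNonAD and -1.69 for FeAAD.

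Cdh16 in FeNonAD ran from 0.955 through a median of 1.32 to 1.77 CPM, with a mean of 1.33 ± 0.293 (n = 8). In FeAAD it ran from 0.177 through 0.423 to 1.18 CPM, with a mean of 0.528 ± 0.348 (n = 9). All 8 FeNonAD libraries lay above the FeCon median, and 7 of 9 FeAAD libraries lay below it. Against the FeCon mean of 0.900 ± 0.501 (n = 10), the log2 fold change was 0.57 for FeNonAD and -0.76 for FeAAD.

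Pla2g2d in FeNonAD ran from 0.828 through a median of 2.06 to 9.12 CPM, with a mean of 2.84 ± 2.64 (n = 8). FeNonAD6 held the highest value. In FeAAD it ran from 0 through 0.562 to 1.22 CPM, with a mean of 0.581 ± 0.377 (n = 9). FeAAD9 had no count, which allows up to 0.181 CPM at 3 counts. Against the FeCon mean of 1.25 ± 0.567 (n = 10), the log2 fold change was 1.19 for FeNonAD, or 0.649 without FeNonAD6, and -1.09 for FeAAD. From FeNonAD to FeAAD it was -1.73 without FeNonAD6.

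**Figure D2:**
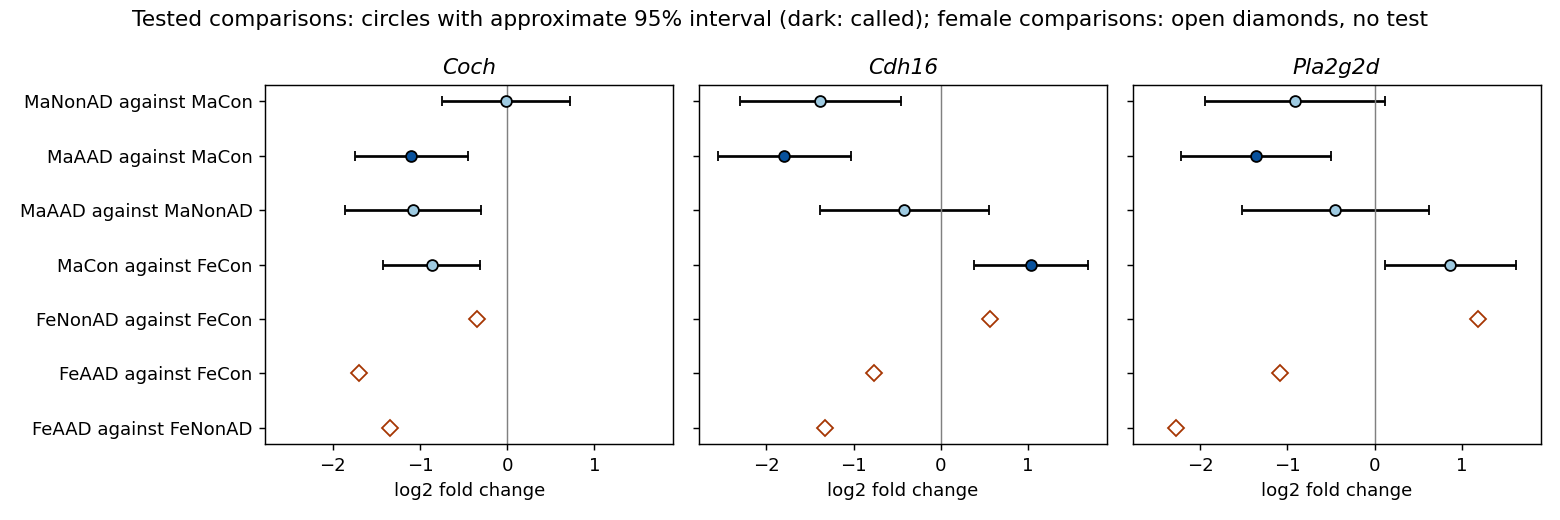
Log2 fold changes of Coch, Cdh16 and Pla2g2d (horizontal axis) in 7 comparisons (vertical axis, first group against second), as circles with approximate 95% intervals where tested and dark where called, and as open diamonds without a test in females. All 3 genes lie left of 0 in MaAAD against MaCon, and Coch lies at -0.02 in MaNonAD against MaCon.

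Ordered by mean level, Coch went from FeCon through FeNonAD, MaCon, MaNonAD and FeAAD to MaAAD. The gap between FeNonAD and MaCon, 1.72 CPM, was the only gap between neighbours larger than the larger of their SDs. Cdh16 went from MaCon through FeNonAD, FeCon, MaNonAD and FeAAD to MaAAD, with no gap between neighbours larger than the SD, and the 2 AAD groups were level at 0.528 and 0.527 CPM. Pla2g2d went from FeNonAD through MaCon, FeCon, MaNonAD and MaAAD to FeAAD, and the gap between MaCon and FeCon, 1.03 CPM, alone was larger than the SD. The first place of FeNonAD for Pla2g2d rested on FeNonAD6. Without that library its mean was 1.95 CPM, below the 2.27 CPM of MaCon. The low places of FeAAD and the high places of FeNonAD were favoured by the choice of the genes.

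Smooth muscle markers (Myh11, Acta2, Tagln, Cnn1, Smtn and Lmod1, genes of the contractile apparatus) fell in the same lesions. Their summed level ran from 27510 to 59714 CPM in MaCon with a median of 40958, and from 11730 to 29183 CPM in MaAAD with a median of 20575. In MaAAD against MaCon, 3 of the 6 were lower DEGs, beside 2.18% of tested genes, with a median log2 fold change of -0.983 against -0.0296 for all genes. They were Myh11, the smooth muscle myosin heavy chain, at -1.10 (adjusted p = 4.91e-05), Acta2, smooth muscle actin, at -1.02 (adjusted p = 3.46e-05), and Cnn1, calponin, at -1.22 (adjusted p = 2.71e-06). In females the summed medians were 42904 CPM in FeCon, 31196 in FeNonAD and 21560 in FeAAD. The part of the loss of smooth muscle RNA in the falls of the 3 genes was examined only as a ratio, chosen after the data were seen.

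Per 10000 CPM of smooth muscle markers, Coch was 0.964 CPM ± 0.245 in MaCon and 0.900 ± 0.483 in MaAAD, a log2 ratio of -0.0998 (exact two-sided permutation p = 0.716, n = 10 and 7). Only 4 of 7 MaAAD libraries lay below the MaCon median of this ratio. Cdh16 was 0.436 ± 0.145 in MaCon and 0.222 ± 0.125 in MaAAD, with all 7 MaAAD libraries below the MaCon median and a log2 ratio of -0.972 (exact two-sided permutation p = 0.00699, n = 10 and 7). Cdh16 in MaNonAD had nearly the same ratio, 0.221 ± 0.0654 (n = 4). Pla2g2d was 0.571 ± 0.280 in MaCon and 0.398 ± 0.267 in MaAAD, with a log2 ratio of -0.52 (exact two-sided permutation p = 0.223, n = 10 and 7). The 3 ratios were the whole family of these tests, with unadjusted p, and a p that misses the threshold does not show equal ratios.

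**Figure D3:**
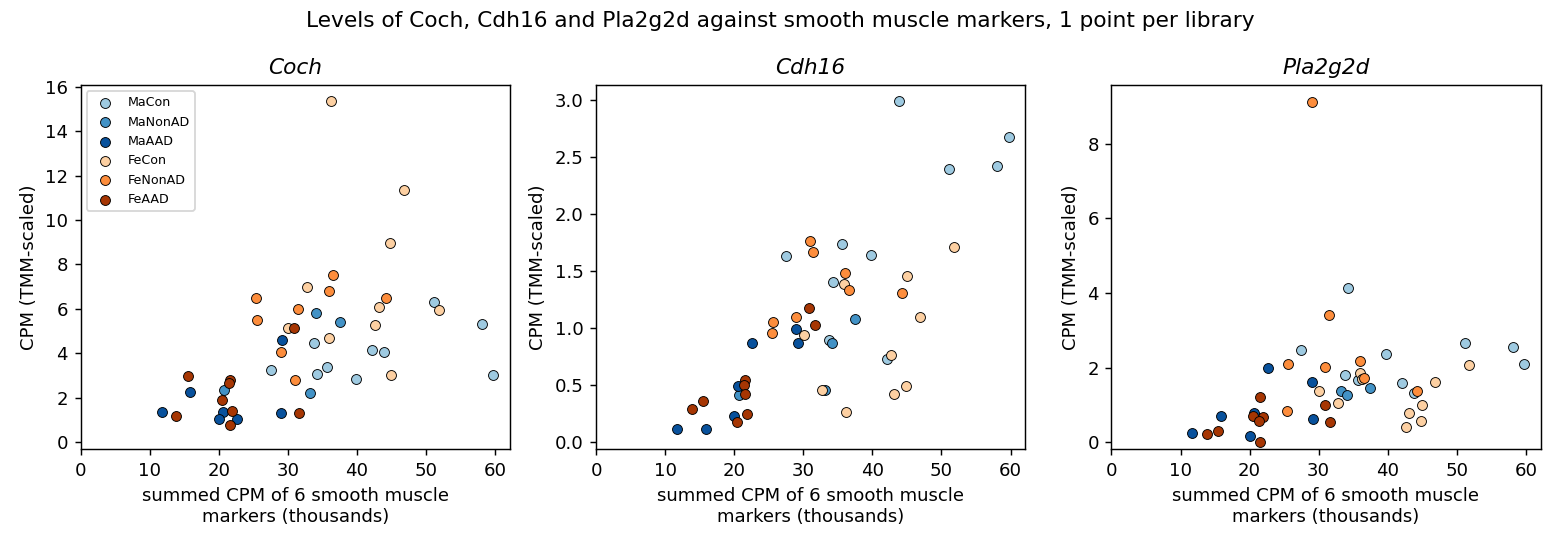
Level of Coch, Cdh16 and Pla2g2d in CPM (vertical axis, linear, a separate scale for each gene) against the summed CPM of the 6 smooth muscle markers in units of 1000 (horizontal axis), with 1 point per library and a colour for each group. AAD libraries reach at most 31672 CPM, with a MaAAD median of 20575 CPM, and MaCon libraries run from 27510 to 59714 CPM.

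After subtracting group means from log2(CPM + 1) over the 48 libraries, Pearson's r was 0.0114 between Coch and Cdh16, 0.0485 between Coch and Pla2g2d and 0.291 between Cdh16 and Pla2g2d. With the group means left in, these were 0.318, 0.363 and 0.630. Such values describe libraries that share depth and dissection, and no p is attached to them. With the summed smooth muscle markers, treated alike, r was 0.265 for Coch, 0.623 for Cdh16 and 0.175 for Pla2g2d.

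Cdh16 was most like Spint2 (r = 0.689), a membrane-bound inhibitor of serine proteases, Ccrl2 (0.689), an atypical chemokine receptor, Pcp4l1 (0.687), Tpm1 (0.681), a tropomyosin of the contractile filaments, and Ssbp3 (0.677) among 13709 genes. Of these 5, Pcp4l1 was a lower DEG in MaAAD against MaCon, at a log2 fold change of -1.25 and an adjusted p of 1.08e-05. Tpm1 at -0.889 (adjusted p = 2.45e-05), Spint2 at -0.863 (adjusted p = 0.000156) and Ccrl2 at -0.855 (adjusted p = 5.76e-05) passed the adjusted p but were under the fold threshold, and Ssbp3 was at -0.284 (adjusted p = 0.0702).

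Pla2g2d was most like Cd209f (r = 0.634) and Cd209g (0.590), C-type lectins of the DC-SIGN family, followed by Chp2 (0.563), a calcineurin-B-like protein, Pigz (0.555), a mannosyltransferase of GPI anchors, and Ano4 (0.539), an anoctamin. Without FeNonAD6, Cd209g stood at 0.554 and Pigz at 0.617, and Cd209f was at 0.599 or more with any library left out. In MaAAD against MaCon, Cd209f was at a log2 fold change of -0.308 (adjusted p = 0.477) and Cd209g at -0.473 (adjusted p = 0.31), neither of which passed. Pigz was at -0.856 (adjusted p = 0.00422), past the adjusted p but under the fold threshold, while Chp2 at 0.0428 (adjusted p = 0.925) and Ano4 at 0.449 (adjusted p = 0.461) did not pass. Cd209g was also the gene at place 6 among the female falls.

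Coch was most like Nos3 (r = 0.621), the endothelial nitric oxide synthase, Insig2 (0.620), a sterol-sensing protein of the endoplasmic reticulum, Tollip (0.616), an adaptor of Toll-like receptor signalling, Mafk (0.612), a small Maf transcription factor, and Col23a1 (0.600), a transmembrane collagen. In MaAAD against MaCon, Mafk was at a log2 fold change of -0.743 (adjusted p = 0.000734), Col23a1 at -0.571 (adjusted p = 0.00751) and Insig2 at -0.359 (adjusted p = 0.00176), all under the fold threshold. Tollip was at -0.0913 (adjusted p = 0.345) and Nos3 at 0.02 (adjusted p = 0.949). Nos3 was, like Coch, lower in MaCon than in FeCon (log2 fold change -0.542, adjusted p = 0.0255), under the fold threshold.

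The tissues and cells in which these genes are best known were read through marker lists. For Cdh16, the kidney and thyroid transcription factor Pax8 had 1 count in 1 library, the thyroid factor Nkx2-1 had 0 counts in every library, and the kidney gene Umod had 1 count in 1 library. Other listed genes were counted widely. Of the kidney list, Lrp2 and Aqp2 had counts in all 48 libraries, with means of 2.85 and 1.11 CPM in MaCon and 2.67 and 1.09 CPM in MaAAD. Of 10 thyroid follicle markers 5 were tested and 2, Tshr and Slc5a5, were lower DEGs in MaAAD against MaCon, where 2.18% of all tested genes were. Tshr, the thyrotropin receptor, went from 4.48 to 2.06 CPM and Slc5a5, the iodide transporter, from 1.03 to 0.225 CPM. The summed thyroid list had a median of 7.8841 CPM in MaCon and 4.7617 in MaAAD, and its part in the Cdh16 values was not tested.

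For Pla2g2d, the macrophage and dendritic cell lists moved the other way. All 6 macrophage markers were higher DEGs in MaAAD against MaCon, where 9.18% of tested genes were, and their summed median went from 250.31 to 855.3 CPM. Of 8 dendritic cell markers 7 were higher DEGs, and the summed median went from 64.904 to 206.45 CPM. Pla2g2d fell by 1.36 on the log2 scale in the same libraries. In lymphoid stromal markers 2 of 5 tested, Ccl19 and Tnfsf11, were higher DEGs. So were 3 of 5 tested B cell markers, whose summed median went from 2.12 to 5.96 CPM, and 4 of 5 cartilage markers (Acan, Col2a1, Comp and Sox9), from 136.4 to 322 CPM. The part of any of these lists in the falls of the 3 genes was not tested. For Coch, the endothelium list, with none of 6 called, had summed medians of 693.21 CPM in MaCon and 710.31 in MaAAD.

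Among the relatives of Pla2g2d, Pla2g5 was lower in AAD than in control aortas of both sexes. Of 5 tested relatives, 1 was a lower DEG in MaAAD against MaCon and in FeAAD against FeCon, where 2.18% and 2.78% of tested genes were, and none was higher. Pla2g5, a secreted phospholipase of macrophages and heart that lies next to Pla2g2d in the RefSeq order of coding genes, fell by 1.10 on the log2 scale in males (standard error 0.383, adjusted p = 0.0206) and by 1.42 in females (standard error 0.368, adjusted p = 0.0015). Pla2g5 was lower already in FeNonAD against FeCon (log2 fold change -1.16, adjusted p = 0.0306), where 1.08% of tested genes were lower DEGs, with -0.26 from FeNonAD to FeAAD (adjusted p = 0.686). Pla2g2e, from the same cluster, was at 0.50 in males (adjusted p = 0.206) and 0.05 in females (adjusted p = 0.902). Pla2r1, a receptor for secreted phospholipases, was at 0.38 (adjusted p = 0.0848) and 0.92 (adjusted p = 1.18e-05), the latter under the fold threshold. Per kilobase of the longest GENCODE transcript, the MaCon level was 1.05 CPM for Pla2g2d, 0.654 for Pla2g5, 0.725 for Pla2g2e and 8.28 for Pla2g12a, a widely expressed family member.

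Those genes of eicosanoid metabolism that were called moved in the other direction, but most were not called. The list runs from the intracellular phospholipase Pla2g4a, through the enzymes that make prostaglandins, thromboxane and leukotrienes, to Hpgd, which degrades prostaglandins. Of 17 tested, 5 were higher DEGs in MaAAD against MaCon and 4 in FeAAD against FeCon, where 9.18% and 9.94% of tested genes were, and none was lower. Ptgs2, the inducible cyclooxygenase, rose by 3.07 on the log2 scale in males (adjusted p = 9.19e-06) and 3.42 in females (adjusted p = 5.91e-07). Hpgds, a prostaglandin D synthase, rose by 2.44 in males (adjusted p = 9.43e-09) and 1.91 in females (adjusted p = 1.56e-07). Alox5ap, the partner of 5-lipoxygenase, rose by 2.34 in males (adjusted p = 1.78e-06) and 2.32 in females (adjusted p = 6.99e-07). Tbxas1, thromboxane synthase, also rose in both sexes, and Alox5 was a DEG in males alone, at 1.06 against 0.75 in females, a difference that was not tested. The other 12 tested genes in males and 13 in females were not called, among them Ptgis. Its mean went from 1437 CPM in MaCon to 967 in MaAAD and from 1635 CPM in FeCon to 930 in FeAAD. Macrophage markers rose in the same libraries, and their part in the rises of the called genes was not tested.

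Of 15 tested cadherins, the relatives of Cdh16, 2 were higher and 3 lower DEGs in MaAAD against MaCon, where 9.18% and 2.18% of tested genes were. In FeAAD against FeCon 3 were higher and 2 lower, where 9.94% and 2.78% were. The higher count in males stood near the share of all genes. The lower counts in both sexes and the higher count in females stood above it. With so few genes, nothing particular to cadherins is read from these counts. Cdh1, E-cadherin of epithelia, rose from 0.209 to 2.20 CPM in males (log2 fold change 3.34, adjusted p = 0.000225) and from 0.181 to 2.83 CPM in females (3.88, adjusted p = 1.66e-05). Cdh11, a mesenchymal cadherin, rose by 1.18 in males (adjusted p = 0.000239) and 1.45 in females (adjusted p = 4.26e-06), and Cdh24 by 1.12 in females (adjusted p = 0.000231). Cdh4, R-cadherin, fell by 1.09 in males (adjusted p = 0.00128) and 1.14 in females (adjusted p = 0.000221), and Cdh9 fell by 1.77 in females (adjusted p = 0.000385).

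Cdh17, the closest relative of Cdh16 and a cadherin of intestine, fell in males by 1.03 on the log2 scale (standard error 0.412, adjusted p = 0.0475) and was at -0.70 in females (adjusted p = 0.122). In FeNonAD against FeCon, Cdh17 was a lower DEG (-1.20, adjusted p = 0.0351). Cdh6 fell by 1.10 in males (adjusted p = 8.3e-05) and was at -0.61 in females (adjusted p = 0.0113), under the fold threshold. Cdh5, the endothelial cadherin, was at 0.57 in males (adjusted p = 0.00544), under the fold threshold. Among 6 tested catenins, the cytoplasmic partners of classical cadherins, Ctnna3 of muscle junctions alone was called, at -1.255 in males (adjusted p = 1.06e-06), where 2.18% of tested genes were lower DEGs. Per kilobase, Cdh16 was at 0.634 CPM in MaCon against 95.7 for Cdh13, a cadherin of smooth muscle and endothelium, and 0.210 for Cdh17.

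Genes of proteins that share a domain with Coch were mostly not called. Of 5 tested LCCL-domain relatives, none was called in MaAAD against MaCon and 2 were lower DEGs in FeAAD against FeCon, where 2.78% of tested genes were. Vit, or vitrin, the closest relative of Coch, was at -0.91 in males (standard error 0.220, adjusted p = 0.000976), just under the fold threshold, and fell by 1.03 in females (standard error 0.204, adjusted p = 5.69e-05). Crispld2 was high in FeCon, at 923 CPM against 365 in MaCon, 396 in FeNonAD and 311 in FeAAD. It was a lower DEG in FeNonAD (-1.22, adjusted p = 4.07e-05) and FeAAD (-1.57, adjusted p = 7.64e-09) against FeCon and in MaCon against FeCon (-1.34, adjusted p = 1.97e-06, where 0.866% of tested genes were lower DEGs), and was at -0.32 in MaAAD against MaCon (adjusted p = 0.21). Of 15 tested matrix proteins with VWA domains, 1 was a higher and 1 a lower DEG in each sex, beside 9.18% and 2.18% of tested genes in males and 9.94% and 2.78% in females, so that the higher share lay below that of all genes. Col12a1, a collagen that coats fibrils, was higher in both sexes (2.10 and 1.95 on the log2 scale, adjusted p = 9.57e-07 and 9.97e-07) and Col22a1, a collagen of tissue junctions, was lower in both (-1.18 and -1.08, adjusted p = 0.00249 and 0.00144). Per kilobase, Coch was at 1.49 CPM in MaCon, Vit at 13.6 and Crispld2 at 87.4.

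**Figure D4:**
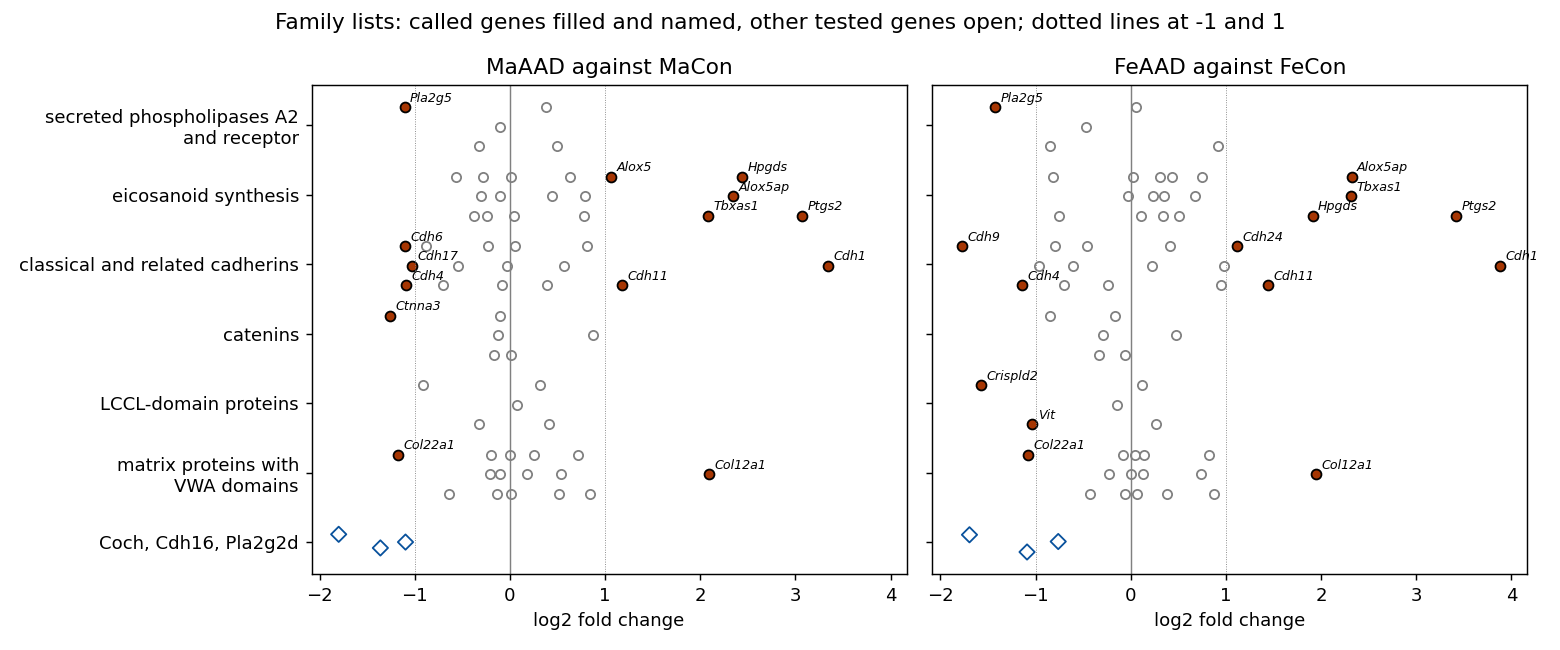
Log2 fold changes (horizontal axis) of the tested genes of 6 family lists (vertical axis) in MaAAD against MaCon and FeAAD against FeCon, with called genes filled and named, other genes open, and Coch, Cdh16 and Pla2g2d as diamonds in the lowest row. Eicosanoid genes that were called lie to the right, with Ptgs2 at 3.07 in males, and Pla2g5 lies to the left in both sexes.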

How the data were processed

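RNA was measured by strand-specific RNA-seq in 48 mouse thoracic aortas, and groups and replicate numbers were taken from the labels. The authors deposited expected counts per gene, not scaled to library size. Bowtie2, RSEM 1.3.1 and GRCm39 are named, without roles, in the submitters' processing notes. Of all values 4.99% were not whole and were rounded, none of them those of Coch, Cdh16 or Pla2g2d. Every column matched a sample.

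After filterByExpr (14431 genes kept) and TMM scaling, 6 group means were fitted to all 48 libraries with edgeR 4.0.16 (R 4.3.3) by the robust quasi-likelihood test, which was tested on simulated data, with Benjamini-Hochberg adjustment over all tested genes. A DEG passed an adjusted p of 0.05 with a log2 fold change of 1 or more in size. Standard errors and 95% intervals are approximate, from the fold change and the F statistic. Each library is 1 mouse, and cages are not in the labels. Control and BAPN mice, and males and females, were caged apart, so cage cannot be told apart from BAPN or sex. Reads carried no molecular identifiers, and floors (3 counts) cover counting error only.

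The members and lists were chosen with earlier results of these data known. Named genes were the 3 genes, the next 2 female falls, the 5 genes with the highest within-group r, up to 3 called rises and falls of each family list, close relatives, and markers of lists that moved with them. Alternatives were DESeq2 1.42.0, its size factors, no filter, no robust estimation, a replicate block, the 2 compared groups alone, adjusted p alone and each library left out. RefSeq names and promoters are of GRCm38.p6 and not of the build of the counts, so no other positions are given.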

Additional observations from a re-analysis of the deposited data

Results flagged for a closer look

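Over the 3 genes and 6 groups, 18 sets of values were examined for a library far from the rest of its group. Of these, 3 held one. The cut-off gives about 1 in 20 for normally distributed values. Low counts need not be so distributed, so no excess is read from the 3. Coch in MaAAD2 was at 4.59 CPM, and the next MaAAD library was at 2.28 CPM. Pla2g2d in MaCon4 was at 4.14 CPM, and the next MaCon library was at 2.66 CPM. Pla2g2d in FeNonAD6 was at 9.12 CPM, and the next FeNonAD library was at 3.41 CPM. Cd209f, the gene most like Pla2g2d within groups, had its highest group mean in FeNonAD, at 9.44 CPM ± 3.62 (SD).

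For Cdh16 all 4 MaNonAD libraries lay below the MaCon mean and all 8 FeNonAD libraries lay above the FeCon mean, and the male difference in mean CPM minus the female one was -1.58. This difference between the sexes was not tested, Cdh16 was not called in MaNonAD against MaCon, and a high FeNonAD level was part of what chose the gene.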

How the results depend on the processing

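Calls of Cdh16 and Pla2g2d in MaAAD against MaCon kept their direction and their side of the thresholds under the 7 other settings and with any library left out. Coch kept its call there under those settings, but not without MaCon9, MaAAD6 or MaAAD7 (range over left-out libraries -1.50 to -0.971). On the ratio to smooth muscle markers, added after the data were seen, the log2 values were -0.0998 for Coch, -0.972 for Cdh16 and -0.52 for Pla2g2d, none of which passed both thresholds. Leaving out single libraries gave -0.262 to 0.19 for Coch in MaNonAD against MaCon, -1.48 to -0.835 for Coch in MaAAD against MaNonAD, 0.926 to 1.18 for Cdh16 in MaCon against FeCon, 0.649 to 1.33 for Pla2g2d in FeNonAD against FeCon and -2.48 to -1.73 for Pla2g2d in FeAAD against FeNonAD.

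Counts of DEGs over all genes moved more. The 51 DEGs of MaAAD against MaNonAD, none lower, became 513 (10 lower) with DESeq2, 168 (3 lower) with DESeq2 size factors within edgeR and 99 (1 lower) without robust estimation. They became 0 without the filter on low counts and 0 with only the 2 groups compared (edgeR, with 2950 and 2442 genes at an unadjusted p under 0.05). They ranged from 0 (without any of MaNonAD2, MaNonAD3, MaNonAD4, MaAAD3, MaAAD5, MaAAD6 or MaAAD7) to 712 (without MaAAD1), and reached 355 without MaNonAD1, 378 without MaAAD2 and 323 without MaAAD4. The 69 of MaNonAD against MaCon became 141 with only the 2 groups, and 15 to 86 with a library left out (15 without MaNonAD1, 36 without MaNonAD3, 45 without MaCon8). At adjusted p alone, the 1639 of MaAAD against MaCon became 5050, the 218 of MaCon against FeCon became 2060, and Coch (-0.866) counted among the latter. Pla2g2d in MaCon against FeCon had an adjusted p of 0.0286 with only the 2 groups. The cause of these shifts was not tested.

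The groups shared replicate numbers, but deviations of same-numbered libraries correlated between -0.378 and 0.31, so the numbers were not taken as pairs. With the number as a block, Coch in MaNonAD against MaCon was 0.0277 in place of -0.0168, and the DEGs of MaAAD against MaNonAD became 0, with 2049 genes at an unadjusted p under 0.05 in edgeR. Coch in MaCon against FeCon was at an adjusted p of 0.0551 in place of 0.0315. The block changed no other call of the 3 genes, left the other totals within 1.5 times, and took the lower DEGs of MaNonAD against MaCon from 14 to 5. Of the 5 genes most like each of Coch, Cdh16 and Pla2g2d, 5, 3 and 3 were shared with a pseudocount of 0.1, and 2, 2 and 3 when group means were left in. Depth limits Cdh16 and Pla2g2d most, whose lowest libraries held 2 and 0 counts.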

Other observations

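Col19a1 and Klk11, the genes just behind the 3 in the female falls, were also lower in male lesions. Col19a1, a collagen of basement membrane zones, was 7.73 CPM ± 1.07 (SD, n = 10) in MaCon, 4.81 ± 1.36 (n = 4) in MaNonAD and 3.26 ± 2.11 (n = 7) in MaAAD, with a log2 fold change of -1.25 in MaAAD against MaCon (edgeR, adjusted p = 0.000335). Klk11 was 1.51 CPM ± 0.572 in MaCon, 0.931 ± 0.568 in MaNonAD and 0.443 ± 0.289 in MaAAD, with a log2 fold change of -1.75 (edgeR, adjusted p = 0.000156). Neither was called in MaNonAD against MaCon or in MaAAD against MaNonAD.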
